A study of Mus musculus with 22 samples.

Results

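Transcripts of 10 genes of the Bcl2 family were followed across 22 mouse tumours: the anti-apoptotic Bcl2, Bcl2l1, Bcl2l2 and Mcl1, the BH3-only genes Bcl2l11, Bbc3, Pmaip1 and Bid, and the effectors Bak1 and Bax. The members were taken by gene symbol, with no threshold on their values, because BCL2 protein is a diagnostic marker of synovial sarcoma and the other members act with it or against it. All 10 were found among the 48440 gene IDs of the count table, and all 10 passed the filter on low counts that left 18929 tested genes.

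The series compared tumours carrying the SS18-SSX fusion, tumours lacking Smarcb1 and tumours with both lesions. SS18-SSX is the fusion oncogene of synovial sarcoma. Smarcb1 (older name Snf5) is a gene of the SWI/SNF complex, a chromatin remodeller of which SS18 is another subunit. The genotype labels read SS18-SSX+/- for 6 tumours (titles with SSM2), SNF5-/- for 8 (called Snf5-null here) and SS18-SSX+/- and Snf5-/- for 8 (called combined). Titles divided them into 3 SS18-SSX tumours with Myf5, 3 SS18-SSX tumours with no Cre stated, 5 Snf5-null tumours with TATCre, 3 Snf5-null tumours with Myf5, 4 combined tumours with TATCre and 4 combined tumours with Myf5Cre. Titles with Myf5 alone are read here as Myf5Cre. Myf5Cre expresses Cre recombinase from the Myf5 gene of myogenic progenitors, and TATCre is a Cre protein that enters cells. Age and tumour site are not in the labels used here. The strain entry begins at C57BL/6 and changes from one sample to the next, so it was not used. Nothing states that each tumour came from its own animal, so a p-value here reflects the spread among these samples, part of which may be technical. Among the Snf5-null TATCre tumours, the tags N43L and N43R have a number in common and could be 1 animal. Tags such as N49 or 78774 name the tumours within a group. The 16 Snf5-null and combined libraries carry 1 number series in their descriptions and the 6 SS18-SSX libraries carry 2 others, so that number series and SS18-SSX genotype cannot be told apart.

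BCL2 family proteins control the mitochondrial pathway of apoptosis. BCL2, BCL-XL (from Bcl2l1), BCL-W (from Bcl2l2) and MCL1 bind and restrain BAX and BAK, the proteins that permeabilise the outer mitochondrial membrane and release cytochrome c. BH3-only proteins such as BIM (from Bcl2l11), PUMA (from Bbc3), NOXA (from Pmaip1) and BID bind the guardians or activate the effectors. Inhibitors that copy the BH3 domain have been made against BCL2, BCL-XL and MCL1.

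The stretches before the starts of Bcl2, Bcl2l11 and Mcl1 are shown. Mcl1 was taken because it was called in every genotype comparison. Bcl2 and Bcl2l11 were taken because they were high or low in many of the same tumours. They are the 250 bases before the first listed RefSeq start of each gene, 5′ to 3′ on the gene's strand (RefSeq table, GRCm38.p6), at chr1:106714291-106714540 on the minus strand for Bcl2, chr2:128125788-128126037 on the plus strand for Bcl2l11 and chr3:95658471-95658720 on the plus strand for Mcl1. Capitals mark matches, on either strand, to the GC box GGGCGG (its reverse complement is CCGCCC) and, in Bcl2l11, to the CCAAT box (read as ATTGG).
Bcl2: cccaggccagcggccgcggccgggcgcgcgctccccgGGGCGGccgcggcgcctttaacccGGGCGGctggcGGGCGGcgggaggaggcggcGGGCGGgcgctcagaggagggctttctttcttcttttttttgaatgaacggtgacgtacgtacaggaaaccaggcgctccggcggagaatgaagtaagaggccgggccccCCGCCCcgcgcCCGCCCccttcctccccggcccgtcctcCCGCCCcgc
Bcl2l11: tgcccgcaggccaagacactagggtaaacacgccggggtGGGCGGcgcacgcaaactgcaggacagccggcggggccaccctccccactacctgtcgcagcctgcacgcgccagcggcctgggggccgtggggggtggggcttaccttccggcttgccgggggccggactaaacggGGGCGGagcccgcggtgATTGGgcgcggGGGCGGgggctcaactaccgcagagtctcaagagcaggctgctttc
Mcl1: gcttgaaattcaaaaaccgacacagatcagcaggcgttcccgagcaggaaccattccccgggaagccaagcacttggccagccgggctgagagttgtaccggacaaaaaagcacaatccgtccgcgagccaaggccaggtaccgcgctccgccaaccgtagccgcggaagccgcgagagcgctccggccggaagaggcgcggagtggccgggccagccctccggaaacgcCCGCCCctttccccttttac
Bcl2 held 7 GC boxes and 36 CpG dinucleotides at 74.8% GC, Bcl2l11 held 3 GC boxes, 1 CCAAT box and 24 CpGs at 72% GC, and Mcl1 held 1 GC box and 26 CpGs at 64.4% GC. Over the 32817 promoter stretches of the table the medians were 6 CpGs and 52.4% GC, and 32.7% held a GC box and 33.8% a CCAAT box. The search also took in the E-box CACGTG (in 6.02% of all stretches), the TATA box TATAAA (12.4%) and the cyclic AMP element TGACGTCA (1.55%). None of these 3 motifs was in the printed stretches, and no printed match overlapped another. Of the members, 9 had an entry in the table and 7 of these held a GC box in at least 1 listed stretch, the exceptions being Bcl2l1 and Bak1. The single E-boxes lay before Bax and before a later listed start of Bbc3. Pmaip1 had no entry. A match describes letters only. No binding or chromatin data were analysed here.

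Total counts ran from 8642648 to 25177722 per library in SS18-SSX tumours, from 16059420 to 21807838 in Snf5-null tumours and from 14834030 to 18062578 in combined tumours. Levels are given as CPM (counts scaled to a common library size) on library sizes adjusted by TMM, a scaling that assumes most genes are alike between libraries. Smarcb1 ranged from 47.1 to 111 CPM in SS18-SSX, from 10.6 to 26.9 in Snf5-null and from 0.909 to 3.66 in combined tumours, so that it was lower in every tumour labelled as lacking it than in every SS18-SSX tumour. The summed level of 9 other synovial sarcoma markers was 1080 to 1820 CPM with the fusion alone, 502 to 1400 in combined and 52.3 to 272 in Snf5-null tumours. Of these markers, 9 were called lower in Snf5-null and 5 in combined against SS18-SSX tumours. They differed among themselves in combined tumours, where the median of Tle1 was 186 CPM, against 266 with the fusion alone, and that of Sox2 was 0.393, against 37.8. The summed level of 20 leucocyte markers was far higher in Snf5-null tumours (1650 to 6760 CPM, median 4120) than in SS18-SSX (72.5 to 619, median 246) or combined tumours (71.6 to 525, median 266). In bulk tissue, fewer cells of a type and less RNA per cell cannot be told apart. Combined TATCre library N49 stood apart. Its log2 levels correlated at a mean r of 0.866 with the rest of its group, against 0.885 to 0.894 for each of the other 3. Such an r was not particular to N49, since SS18-SSX Myf5Cre N381 had 0.867 with its own group. The muscle markers of N49 summed to 1820 CPM, against 201 to 474 in the rest of its group. Its fibroblast markers summed to 10100 CPM, against 678 to 9380, and its leucocyte sum was 525 CPM, against 337 to 467. Among all combined tumours it had the highest Smarcb1 (3.66 CPM, against 0.909 to 3.33 in the other 7) and the lowest sum of synovial sarcoma markers (502 CPM, against 514 to 1400), and its Tle1 (159 CPM) was at the low end of the others (159 to 221). Markers of that list were not all low in N49. Fzd10 stood at 113 CPM, against a median of 15.5 in the other 7 (4.66 to 219). Twist1, at 56.2 CPM, was near their median of 62. N49 shares its tag with a Snf5-null TATCre library. Results that rest on it are given with and without it.

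Per kilobase of exon, the only scale on which levels of different genes are compared here, Mcl1 was the most abundant member in every genotype, with medians of 120 CPM per kb in Snf5-null, 58.6 in combined and 37.3 in SS18-SSX tumours. Bax ranked 2 in every genotype (30.1, 39.8 and 19.1 CPM per kb in the same order), and Bak1 ranked 3 (16.8, 17.6 and 14.9). The rank of Bcl2 varied between groups. It was 8 of 10 in both SS18-SSX groups (medians 4.67 and 5.93 CPM per kb), 7 in Snf5-null TATCre tumours (5.45) and 4 in the Myf5Cre tumours of that genotype (17.4). Bcl2 was last in combined TATCre tumours (0.923 CPM per kb) and rank 9 in combined Myf5Cre tumours (0.907), where Pmaip1 was lower (0.698). In N49 it stood at 18.1 CPM per kb, below Mcl1 (50.8) and Bax (27.8) alone. Bcl2l1 lay at 13, 12.2 and 7.04 CPM per kb in SS18-SSX, Snf5-null and combined tumours. Scaling by the longest transcript in place of all exons left Mcl1 at rank 1 and Bax at rank 2 in each genotype. It moved Bak1 to rank 5 in SS18-SSX and rank 4 in Snf5-null tumours, and Bcl2 to rank 9 in Snf5-null TATCre and rank 3 in Snf5-null Myf5Cre tumours. By group it put Bax above Mcl1 in SS18-SSX tumours with no Cre stated (37.1 against 27 CPM per kb) and in combined TATCre tumours (59.6 against 55.9). In SS18-SSX Myf5Cre tumours Bax was then at rank 4.

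**Figure D1:**
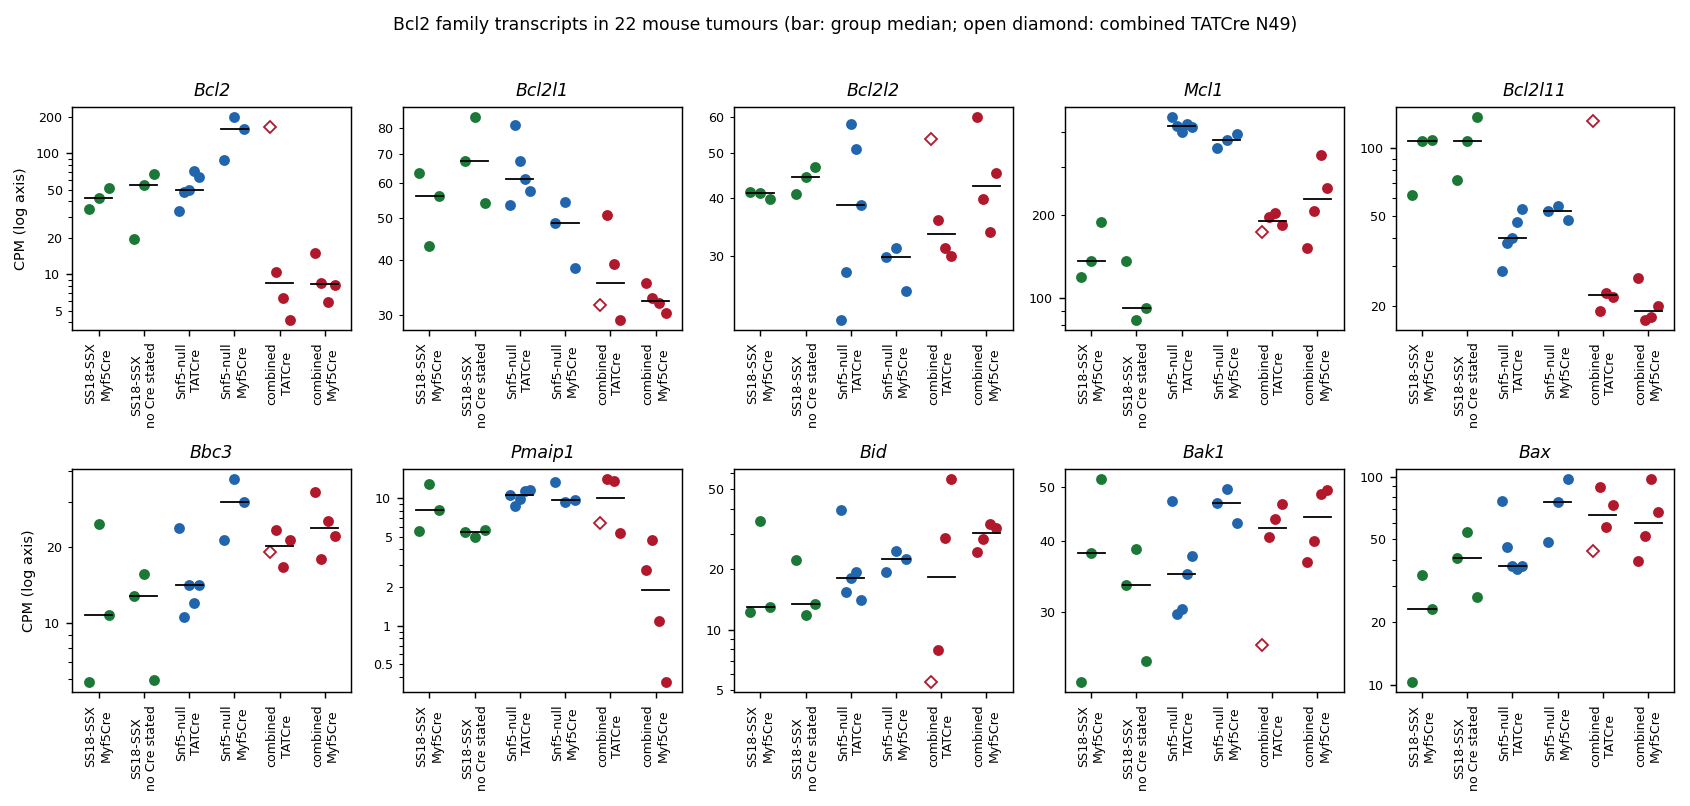
CPM (log axis, a separate scale in each panel) of the 10 members in the 22 libraries by group, with the group median as a bar and combined TATCre library N49 as an open diamond. Bcl2 and Bcl2l11 are lowest in 7 of the 8 combined tumours and high in N49, Mcl1 is highest in all 8 Snf5-null tumours, and most other panels show overlapping genotypes.

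Genotypes were compared with edgeR's quasi-likelihood test, which set the mean of both groups of one genotype against the mean of both groups of another in a single model of the 22 libraries. A gene was called at a Benjamini-Hochberg adjusted p below 0.05 over all tested genes. In combined against Snf5-null tumours 4 of the 10 members were called lower (Bcl2, Bcl2l1, Mcl1 and Pmaip1), where 20.5% of all tested genes were called lower. By edgeR 0 members were called higher (29.1% of all tested genes were), as were 0 at an unadjusted p below 0.05 and 0 by DESeq2. In combined against SS18-SSX tumours 3 members were called higher (Mcl1, Bax and Bbc3; background 23.1%) and 2 lower (Bcl2l11 and Bcl2l1; background 21.9%). Snf5-null tumours also had Mcl1, Bax and Bbc3 higher than SS18-SSX tumours (3 of 10; background 22.3%) and Bcl2l11 lower (1 of 10; background 25.9%). None of these counts is read as particular to the family. The 3 comparisons share their groups in pairs, so their calls are not independent. Median log2 fold changes of the members were -0.27, 0.11 and 0.45 in this order, beside 0.23, -0.09 and -0.06 over all tested genes. Without N49, 5 members were called lower in combined against Snf5-null tumours (Bcl2l11 was added) and 3 in combined against SS18-SSX tumours (Bcl2 was added). In Snf5-null against SS18-SSX tumours 3 were still called higher, with Bcl2 in place of Bbc3.

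**Figure D2:**
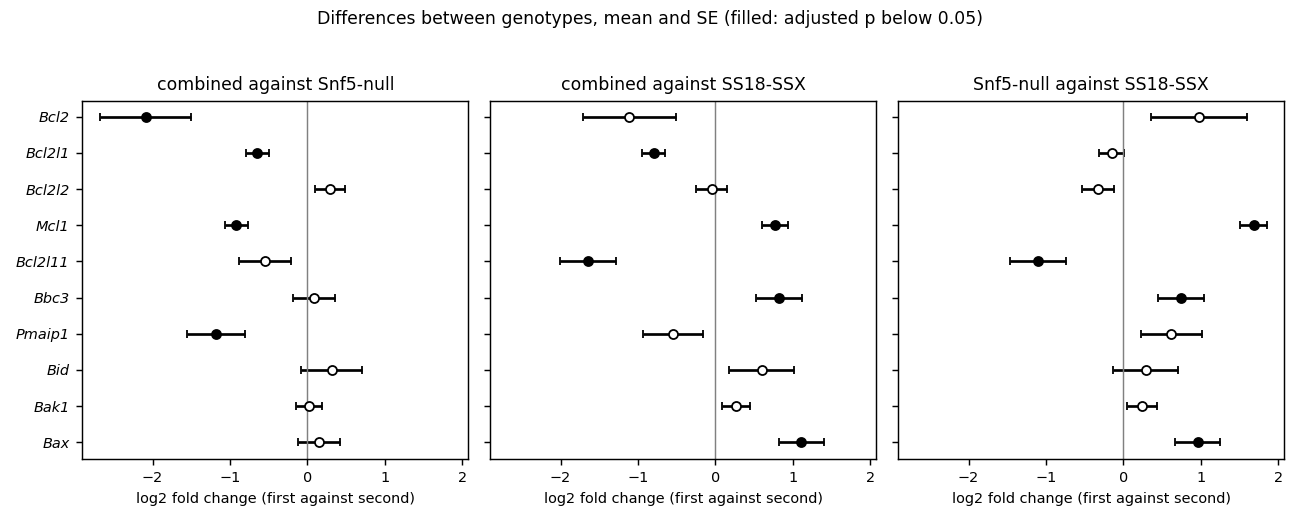
Log2 fold change of each member in the 3 genotype comparisons, with bars of 1 SE and filled points for an adjusted p below 0.05 by edgeR's quasi-likelihood test. Bcl2, Bcl2l1, Mcl1 and Pmaip1 lie below 0 with filled points in combined against Snf5-null tumours, and Mcl1 has the largest shift in Snf5-null against SS18-SSX tumours.

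Bcl2 (ENSMUSG00000057329, chr1:106538178-106714274, minus strand, GRCm38), the founding guardian of the family, was lowest in 7 of the 8 combined tumours. SS18-SSX tumours with Myf5Cre had 34.5, 42.8 and 51.9 CPM (N381, N428 and N460), and those with no Cre stated had 19.6, 54.3 and 67.9 CPM (A, B and N2). Snf5-null tumours with TATCre had 33.2, 47.5, 49.9, 71.9 and 63.8 CPM (N1, N49, N43L, N43R and N51), and those with Myf5Cre had 88.3, 200 and 159 CPM (N30, N31 and N33). The range of this synovial sarcoma marker in Snf5-null TATCre tumours, which lack the fusion, overlapped that of SS18-SSX tumours. The 3 Snf5-null Myf5Cre tumours lay above all 11 of these. Combined tumours with TATCre had 166, 10.5, 6.43 and 4.21 CPM (N49, 78774, 78777 and 78780), and those with Myf5Cre had 15, 8.49, 5.9 and 8.12 CPM (N1 to N4). N49 alone rose above all SS18-SSX tumours and into the range of the Snf5-null Myf5Cre tumours, while the other 7 combined tumours (4.21 to 15 CPM, median 8.12) were below every SS18-SSX and every Snf5-null tumour.

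By group median, Bcl2 fell in the order Snf5-null Myf5Cre (159 CPM), SS18-SSX tumours without a stated Cre (54.3), the TATCre group of Snf5-null (49.9), SS18-SSX Myf5Cre (42.8), combined TATCre (8.45) and combined Myf5Cre (8.3). The 3 groups with medians of 42.8 to 54.3 CPM overlapped, and so did both combined groups. In combined against Snf5-null tumours the log2 fold change of Bcl2 was -2.09 ± 0.59 (SE; adjusted p = 0.00699 by edgeR's quasi-likelihood test), and it was -3.39 ± 0.32 without N49 (adjusted p = 4.25e-07). In combined against SS18-SSX tumours it was -1.11 ± 0.6 (adjusted p = 0.138) with all libraries, and -2.43 ± 0.31 (adjusted p = 2.1e-05) without N49. In Snf5-null against SS18-SSX tumours it was 0.98 ± 0.62 (adjusted p = 0.199), and 0.97 ± 0.3 (adjusted p = 0.0124) without N49. A single library therefore decided the call in both comparisons with SS18-SSX tumours. N49 is in neither group of Snf5-null against SS18-SSX tumours. There the fold change barely moved and the SE fell, since all libraries share an estimate of the spread in the model. Among Myf5Cre tumours alone, combined were below Snf5-null by a log2 fold change of -3.99 ± 0.91 (adjusted p = 0.00305). Among TATCre tumours alone the value was -0.19 ± 0.75 (adjusted p = 0.864) with N49 and -2.85 ± 0.45 (adjusted p = 0.000282) without it. N49 had the highest muscle sum of the combined tumours. The 3 Snf5-null Myf5Cre tumours all had more Bcl2 than any Snf5-null TATCre tumour. Their muscle sums were 107 (N33), 239 (N31) and 6040 CPM (N30), against 1590 to 19200 CPM in the 5 TATCre tumours. These are Cre groups of another genotype, and their values cannot be carried over to N49. The part of other cells in the level of N49 was not tested.

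**Figure D3:**
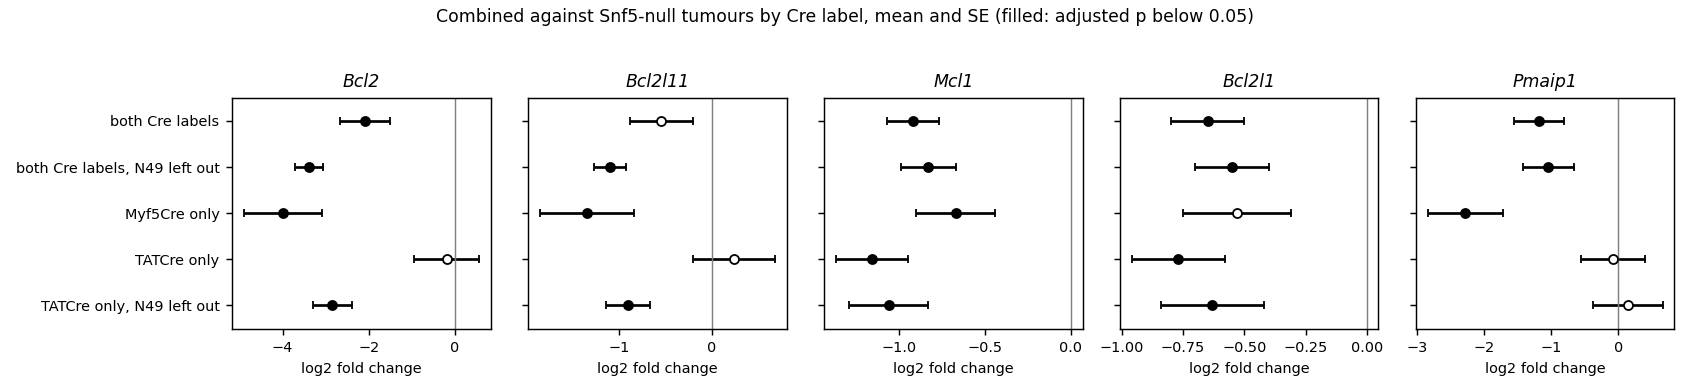
Log2 fold change of 5 members in combined against Snf5-null tumours over both Cre labels and within each, with and without combined TATCre library N49 (bars 1 SE, filled points adjusted p below 0.05 by edgeR). Bcl2 and Bcl2l11 are near 0 among TATCre tumours only while N49 is included, whereas Mcl1 stays below 0 in all 5 fits and Pmaip1 is near 0 among TATCre tumours and below 0 in the other fits.

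Mcl1 (ENSMUSG00000038612, chr3:95658788-95663176, plus strand), a short-lived guardian that many tumour cells depend on, separated the genotypes most cleanly. Its level was 350 to 455 CPM (median 409) in Snf5-null, 152 to 330 (median 200) in combined and 83.4 to 189 (median 127) in SS18-SSX tumours. All 8 Snf5-null tumours were above all combined and all SS18-SSX tumours, and 5 of the 8 combined tumours were above all SS18-SSX tumours. The log2 fold change was 1.68 ± 0.17 in Snf5-null against SS18-SSX (3.21-fold; adjusted p = 1.5e-06 by edgeR's quasi-likelihood test) and -0.92 ± 0.15 in combined against Snf5-null tumours (1.89-fold lower; adjusted p = 0.000121). In combined against SS18-SSX tumours it was 0.77 ± 0.17 (adjusted p = 0.00132), which against the SS18-SSX Myf5Cre group alone became 0.51 (adjusted p = 0.0642). N49, at 174 CPM, was not apart from its group in Mcl1. Leucocytes also express Mcl1. Of the 20 leucocyte markers, 19 were called lower in combined against Snf5-null tumours and 13 higher in Snf5-null against SS18-SSX tumours. Within Snf5-null tumours the library with the lowest leucocyte sum (N49 of the TATCre group, 1650 CPM) had 423 CPM of Mcl1, near the 455 CPM of the library with the highest sum (N1, 6760 CPM). Combined Myf5Cre tumours, with sums of 71.6 to 194 CPM and 4 of the 20 markers at 0 in all 4 libraries, held 152 to 330 CPM of Mcl1. The part of leucocytes in the difference between Snf5-null and the other tumours was not tested.

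**Figure D4:**
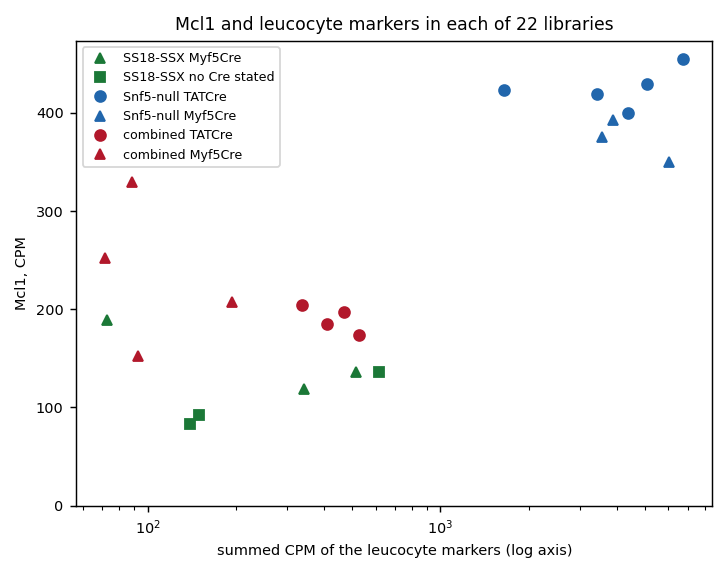
Mcl1 (CPM, linear axis from 0) against the summed CPM of 20 leucocyte markers (log axis), 1 point per library. The 8 Snf5-null libraries lie at 350 to 455 CPM of Mcl1 with sums of 1650 to 6760 CPM, apart from the others, and among combined libraries the highest Mcl1 (330 CPM) is in the Myf5Cre group with the low sums.

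Bcl2l1 (ENSMUSG00000007659, chr2:152780668-152831728, minus strand), which encodes BCL-XL, was lower in combined tumours than in either single genotype. It ran from 43.1 to 84.9 CPM (median 59.5) in SS18-SSX, from 38.3 to 81.2 (median 56) in Snf5-null and from 29.2 to 50.8 (median 32.3) in combined tumours. Of the combined tumours, 6 were below all Snf5-null and 7 below all SS18-SSX tumours. The log2 fold change was -0.65 ± 0.15 against Snf5-null (adjusted p = 0.00144 by edgeR's quasi-likelihood test) and -0.8 ± 0.15 against SS18-SSX tumours (adjusted p = 0.00053). Within Myf5Cre tumours the first of these was -0.53 ± 0.22 and missed the threshold (adjusted p = 0.0682). Between Snf5-null and SS18-SSX tumours it was -0.15 ± 0.16 (adjusted p = 0.449). Bcl2l2 (ENSMUSG00000089682, chr14:54883377-54888234, plus strand), which encodes BCL-W, was called in none of these comparisons, with log2 fold changes of 0.29, -0.05 and -0.33. It was nearly even in the 6 SS18-SSX tumours (39.8 to 46.6 CPM) and varied more in Snf5-null (21.8 to 57.7) and combined tumours (29.9 to 59.9). A share of 12.1% of its 50-base stretches also occurs in Gm20521, a same-strand transcript counted at no more than 0.903 CPM.

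Bcl2l11 (ENSMUSG00000027381, chr2:128126038-128162547, plus strand) encodes BIM, a BH3-only protein that binds all the main guardians. It was highest in SS18-SSX tumours (62.3 to 138 CPM, median 108), lower in Snf5-null tumours (28.5 to 55.4, median 47.6) and lowest in 7 combined tumours (17.3 to 26.6, median 20). N49 again stood apart at 133 CPM, among the SS18-SSX values. All 8 Snf5-null tumours and the other 7 combined tumours lay below all 6 SS18-SSX tumours. In combined against SS18-SSX tumours the log2 fold change was -1.65 ± 0.36 (3.14-fold lower; adjusted p = 0.00134 by edgeR's quasi-likelihood test), or -2.21 ± 0.19 (adjusted p = 8.65e-07) without N49. In Snf5-null against SS18-SSX tumours it was -1.1 ± 0.36 (adjusted p = 0.0183), or -1.11 ± 0.18 (adjusted p = 6.7e-05) without N49. That library is in neither of these groups and acts there through the shared estimate of the spread. With N49 kept, this second call was lost on leaving out any 1 of SS18-SSX Myf5Cre N428 or N460, SS18-SSX B or N2, or Snf5-null Myf5Cre N30, N31 or N33 (log2 fold change -0.97 to -0.84, adjusted p 0.0677 to 0.0998). In combined against Snf5-null tumours the value was -0.55 ± 0.34 (adjusted p = 0.18) with N49 and -1.1 ± 0.17 (adjusted p = 6.37e-05) without it.

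Bcl2 and Bcl2l11, a guardian and one of its antagonists, were high and low in many of the same libraries. Over the 22 libraries their log2 CPM had a Pearson r of 0.733 and a Spearman rho of 0.705, and r was 0.699 without N49. After subtracting each group's mean, r was 0.919, and 0.666 without N49. This is a description: the libraries share their groups and the scaling, and by the r of 0.733 Bcl2l11 ranked only 355 among all tested genes in likeness to Bcl2. It ranked higher once group means were subtracted, where the highest r of any tested gene was 0.944. The ratio of the pair was higher in Snf5-null than in SS18-SSX tumours, and its medians were alike in SS18-SSX and combined tumours. Per kb, the log2 ratio of Bcl2 to Bcl2l11 was 0.03 to 1.66 (median 0.28) in Snf5-null tumours, -2.08 to -1.04 (median -1.24) in SS18-SSX tumours and -2.57 to 0.13 (median -1.35) in combined tumours. Per kb of all exons, all Snf5-null tumours therefore had more Bcl2 than Bcl2l11 transcript, and all SS18-SSX tumours less. The first part depended on the length used. Scaled by the longest transcript, Bcl2 was below Bcl2l11 in Snf5-null TATCre N1 (4.62 against 5.66 CPM per kb), N49 (6.6 against 7.57), N43L (6.94 against 7.93) and N51 (8.87 against 10.7).

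**Figure D5:**
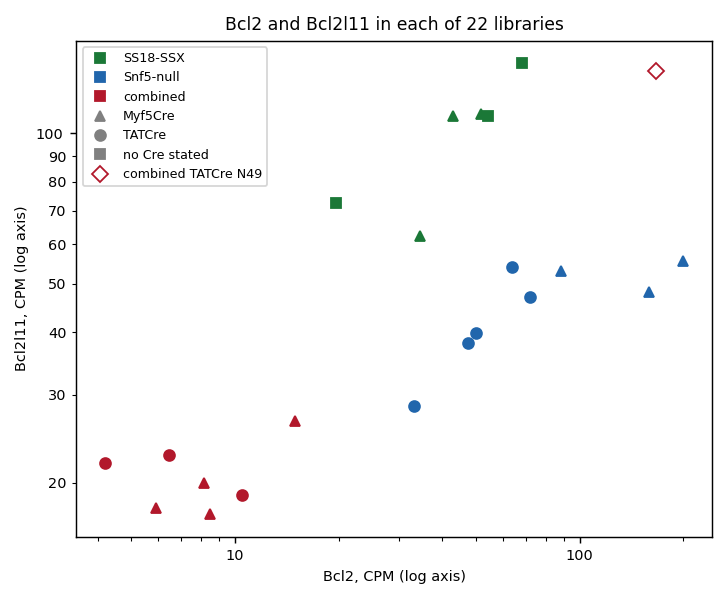
Bcl2 against Bcl2l11 in each library (CPM, both axes log), coloured by genotype and shaped by Cre label, with combined TATCre N49 as an open diamond. Combined libraries other than N49 lie at the low end of both genes. SS18-SSX libraries have more Bcl2l11 for their Bcl2 than Snf5-null libraries, which run from 28.5 to 55.4 CPM of Bcl2l11.

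Bbc3 (ENSMUSG00000002083, chr7:16308393-16318205, plus strand) encodes PUMA, a target of p53. It ran from 5.85 to 24.6 CPM (median 11.8) in SS18-SSX, from 10.6 to 37 (median 17.7) in Snf5-null and from 16.6 to 32.8 (median 21.7) in combined tumours. The genotypes overlapped. The log2 fold change against SS18-SSX tumours was 0.82 ± 0.3 in combined (adjusted p = 0.0301 by edgeR's quasi-likelihood test) and 0.74 ± 0.3 in Snf5-null tumours (adjusted p = 0.0474). The first call held in 18 and the other in 9 of the 22 fits that left out 1 library, and neither held against 1 SS18-SSX group alone (adjusted p 0.0595 to 0.207). Trp53 itself was measured at a median of 51.5 CPM in SS18-SSX, 46.5 in Snf5-null and 49.2 in combined tumours.

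Pmaip1 (ENSMUSG00000024521, chr18:66458533-66465565, plus strand) encodes NOXA, a BH3-only protein that binds MCL1. It was the least abundant member per kb in SS18-SSX and Snf5-null tumours. SS18-SSX tumours had 4.93 to 12.9 CPM (median 5.61) and Snf5-null tumours 8.74 to 13.3 (median 10.2). Combined tumours with TATCre had 6.37, 14.1, 13.6 and 5.33 CPM (N49, 78774, 78777 and 78780), and those with Myf5Cre had 2.73, 4.7, 1.09 and 0.364 CPM (N1 to N4). The 4 combined Myf5Cre tumours lay below every other tumour in the series. Their counts were 6 to 78 per library, so that the lowest of these values rest on few reads. The log2 fold change in combined against Snf5-null tumours was -1.18 ± 0.37 (adjusted p = 0.0141 by edgeR's quasi-likelihood test). It was -2.28 ± 0.56 (adjusted p = 0.00503) among Myf5Cre tumours and -0.08 ± 0.48 (adjusted p = 0.917) among TATCre tumours, and with genotype alone in the model it was -0.8 (adjusted p = 0.166). Between the Cre labels within combined tumours it was -2.14 ± 0.54 (adjusted p = 0.046), a call that held in only 5 of the 22 fits that left out 1 library. The test of whether the Cre difference depended on genotype gave -2.2 ± 0.73 (adjusted p = 0.114), so the difference between the Cre labels' results was not established.

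Bid (ENSMUSG00000004446, chr6:120891930-120916853, minus strand) links death receptors to mitochondria once caspase-8 has cut the protein. It was called in none of the genotype comparisons, with log2 fold changes of 0.31 ± 0.39 in combined against Snf5-null, 0.6 ± 0.42 in combined against SS18-SSX and 0.29 ± 0.42 in Snf5-null against SS18-SSX tumours. Its spread was widest in the combined TATCre group, at 5.49, 7.95, 28.5 and 56.2 CPM (N49, 78774, 78777 and 78780), against 24.5 to 33.6 CPM in combined Myf5Cre tumours. In that TATCre group Bid was lowest in the libraries with the highest Bcl2, and its r with Bcl2 over the 22 libraries was -0.492. Of its exon bases, 17.7% overlap Bcl2l13 on the other strand (37.2 to 118 CPM). The sources used here do not say how the counting used strand, so some of those reads could belong to either gene.

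Bax (ENSMUSG00000003873, chr7:45461697-45466898, minus strand), a pore-forming effector, was called higher than in SS18-SSX tumours in both genotypes that lack Smarcb1. It ran from 10.3 to 54.1 CPM (median 30.1) in SS18-SSX, from 36.1 to 97.6 (median 47.4) in Snf5-null and from 39.2 to 97.5 (median 62.7) in combined tumours. The ranges overlapped, with 5 of 8 combined and 3 of 8 Snf5-null tumours above all SS18-SSX tumours. The log2 fold change was 1.11 ± 0.29 (adjusted p = 0.00503 by edgeR's quasi-likelihood test) in combined and 0.96 ± 0.29 (adjusted p = 0.0113) in Snf5-null against SS18-SSX tumours. Against the SS18-SSX tumours with no Cre stated alone, these were 0.68 (adjusted p = 0.154) and 0.54 (adjusted p = 0.262). The SS18-SSX Myf5Cre tumours alone had 10.3, 33.6 and 23.1 CPM, against 40.8, 54.1 and 26.5 CPM in those with no Cre stated. The size of the Bax difference thus varied with the SS18-SSX group, and number series cannot be told apart from it. Bak1 (ENSMUSG00000057789, chr17:27019810-27029009, minus strand), the other effector, differed less between genotypes: 29.7 to 49.5 CPM in Snf5-null, 26.2 to 49.4 in combined and 22.5 to 51.6 in SS18-SSX tumours. Its log2 fold changes were 0.02, 0.26 and 0.24, none called. Exons of Bak1 overlap Ggnbp1 on the other strand over 25.5% of their bases (Ggnbp1 at 1.94 to 15.5 CPM).

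Set against each other within a library, the transcripts gave a combined genotype with little Bcl2 relative to the effectors. The log2 ratio of Bcl2 to Bax per kb was -3.6 to -0.8 (median -1.78) in SS18-SSX, -3.74 to -1.13 (median -1.8) in Snf5-null and -6.67 to -0.62 (median -5.61) in combined tumours, where the highest value was that of N49. The ratio of Bcl2 to Bak1 had medians of -1.6, -1.09 and -4.35 in the same order. Relative to Mcl1 the medians were -3.15, -4.07 and -6.2, and relative to Bcl2l1 they were -1.37, -0.81 and -3.11. Only the Snf5-null Myf5Cre group had a median Bcl2 above Bcl2l1 per kb (0.88, range -0.14 to 1.06). These are ratios of transcripts, without a test, and say nothing of protein.

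The source of Cre was compared within the genotypes that had both. Within Snf5-null tumours edgeR called 0 members higher in Myf5Cre than TATCre tumours (background 1.78%) and 0 lower (background 3.19%). At an unadjusted p below 0.05 there was 1 in each direction (Bbc3 higher, Bcl2l1 lower), and DESeq2 called 0. Bcl2 had the largest value, 1.49 ± 0.79 (adjusted p = 0.312), which became 1.52 (adjusted p = 0.0247) without combined TATCre N49. That library is in neither of these groups and acts there through the shared estimate of the spread. Within combined tumours 1 member was called lower, Pmaip1 (background 1.25%), and 0 higher (background 0.571%; 0 at an unadjusted p below 0.05 and 0 by DESeq2). Bcl2 stood at -2.31 ± 0.83 (adjusted p = 0.141) there, and at 0.44 ± 0.42 (adjusted p = 0.749) without N49, so the sign rested on that library. For the interaction of Cre and genotype 0 members were called higher (background 1.32%; 0 at an unadjusted p below 0.05) and 0 lower (background 1.1%; 3 at an unadjusted p below 0.05). DESeq2 called 0 higher and 2 lower in that test, Bcl2 and Pmaip1. The edgeR value for Bcl2 was -3.8 ± 1.14 (adjusted p = 0.0788) and fell in size to -1.09 ± 0.57 (adjusted p = 0.327) without N49. Between SS18-SSX Myf5Cre and SS18-SSX tumours with no Cre stated 0 members were called higher (background 1.25%) or lower (background 0.866%), with 0 at an unadjusted p below 0.05 and 0 by DESeq2. The largest differences there were -0.86 ± 0.43 for Bax (adjusted p = 0.339) and 0.72 ± 0.59 for Pmaip1 (adjusted p = 0.628).

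Around the members, the remaining anti-apoptotic genes followed the leucocyte markers. Of 5 listed genes 3 were tested, the near-identical copies Bcl2a1a, Bcl2a1b and Bcl2a1d, which are leucocyte guardians whose reads cannot be assigned with certainty. All 3 were called higher in Snf5-null tumours than in both other genotypes. Bcl2a1b had 2.79 to 12.9 CPM in Snf5-null tumours, against 0 to 1.61 with the fusion alone and 0.267 to 1.73 in combined tumours, with a log2 fold change of -3.62 ± 0.61 in combined against Snf5-null (adjusted p = 0.000128 by edgeR). Leucocyte sums moved the same way, and their part in this result was not tested.

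The counts for the lists that follow stand beside the same shares of all tested genes as above: 29.1% higher and 20.5% lower in combined against Snf5-null, 23.1% and 21.9% in combined against SS18-SSX, and 22.3% and 25.9% in Snf5-null against SS18-SSX tumours. No list was tested against other genes. Of 10 other tested family genes listed as pro-apoptotic, 6 were higher and 1 lower in combined against Snf5-null tumours (list median 0.63, beside 0.23 over all genes). In combined against SS18-SSX tumours 4 were higher and 1 lower (list median -0.09, beside -0.09). Snf5-null against SS18-SSX tumours had 2 higher and 1 lower. Both counts of genes higher in combined tumours include Bcl2l12 (0.83 ± 0.16 and 0.43 ± 0.16), whose place in a pro-apoptotic list is not settled. Bnip3, a mitochondrial BH3-like protein induced by hypoxia, was at 23.4 to 220 CPM in combined, 9.91 to 60.7 in Snf5-null and 5.17 to 38.2 in SS18-SSX tumours (log2 fold change 2.73 ± 0.49 in combined against SS18-SSX, adjusted p = 0.000311 by edgeR). Bnip3 shares 16.5% of its 50-base stretches with other loci, so its counts are uncertain. Bad, a BH3-only protein held in check by survival kinases, had a log2 fold change of 0.92 ± 0.19 in combined against Snf5-null tumours (adjusted p = 0.000728; 37.7 to 89 against 26.8 to 60.1 CPM). Bok, an effector-like member, had one of -1.36 ± 0.37 (adjusted p = 0.00546).

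Downstream of the mitochondria, 13 of 13 listed genes of the apoptosome and caspases were tested. In combined against Snf5-null tumours 5 were higher and 1 lower, in combined against SS18-SSX tumours 6 were higher and 1 lower, and in Snf5-null against SS18-SSX tumours 3 were higher and 1 lower (list medians 0.33, 0.69 and 0.49, beside 0.23, -0.09 and -0.06 over all genes). A share of the list near that of all genes, as for the 3 of 13 higher in the last comparison, is not a result about it. Apaf1, the scaffold that cytochrome c assembles into the apoptosome, had 73.6 to 441 CPM (median 301) in combined tumours, 62.8 to 154 in Snf5-null and 49.4 to 91.6 in SS18-SSX tumours. Its log2 fold change was 1.35 ± 0.21 against Snf5-null (adjusted p = 5.36e-05 by edgeR) and 1.89 ± 0.23 against SS18-SSX tumours (adjusted p = 1.83e-05). Casp9, the caspase that the apoptosome activates, went the other way in combined tumours, by -0.93 ± 0.16 against Snf5-null (adjusted p = 0.000161) and -0.63 ± 0.17 against SS18-SSX tumours (adjusted p = 0.00601). The scaffold and its caspase thus differed in opposite directions between the same tumours.

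Of 9 inhibitors of apoptosis, 6 were higher and 1 lower in Snf5-null against SS18-SSX tumours, and 5 were lower and 1 higher in combined against Snf5-null tumours (list medians 1.53 and -1.95). The largest of these were Naip genes, sensors of bacterial proteins in macrophages that share sequence and are uncertain one by one. Naip2 had 12.7 to 73.9 CPM in Snf5-null tumours, against 1.21 to 8.13 in combined tumours and 0.891 to 5.9 with the fusion alone. Xiap, the direct inhibitor of caspases, had a log2 fold change of -0.86 ± 0.22 in Snf5-null against SS18-SSX tumours (adjusted p = 0.0035 by edgeR). Birc5, the mitotic member survivin, was higher in combined tumours, by 1.27 ± 0.42 against Snf5-null (adjusted p = 0.0178) and 1.42 ± 0.45 against SS18-SSX (adjusted p = 0.0162). Of 11 death receptor genes, 10 were lower in combined against Snf5-null tumours (9 without N49) and 6 were higher in Snf5-null against SS18-SSX tumours (7 without N49), with list medians of -1.03 and 0.88. Tnf, a cytokine of macrophages, had a median of 3.89 CPM in Snf5-null and 0.227 CPM in combined tumours (log2 fold change -4.16 ± 0.57, adjusted p = 1.63e-05). Leucocyte sums were also highest in Snf5-null tumours, and their part in these lists was not tested.

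Among 19 tested regulators of the family, 5 were higher and 1 lower in Snf5-null against SS18-SSX tumours, 4 higher and 3 lower in combined against SS18-SSX, and 1 higher and 6 lower in combined against Snf5-null tumours. Without N49, 5 in place of 3 were lower in combined against SS18-SSX tumours. The counts of higher regulators in both comparisons with SS18-SSX tumours are near the shares of all genes (22.3% and 23.1%). Myc, which sensitises cells to apoptosis, was higher than in SS18-SSX tumours by 2.79 ± 0.32 in Snf5-null (adjusted p = 3.55e-06 by edgeR) and 2.05 ± 0.31 in combined tumours (adjusted p = 8.63e-05), with 17.6 to 99.7 CPM in Snf5-null, 26.1 to 43.1 in combined and 4.42 to 11 in SS18-SSX tumours. Foxo3, a transcription factor known to induce Bcl2l11 and Bbc3, had a log2 fold change of -0.73 ± 0.22 in combined against SS18-SSX tumours (adjusted p = 0.0113). Of 6 genes of MCL1 protein turnover, March5 was called in all 3 comparisons. This mitochondrial ubiquitin ligase stood at 63.4 to 92.5 CPM in combined, 47.7 to 77.5 in Snf5-null and 23.3 to 51.8 in SS18-SSX tumours (1.23 ± 0.16 in combined against SS18-SSX, adjusted p = 2.63e-05).

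The tested genes most like Bcl2 over the 22 libraries, by Pearson r of log2 CPM with the other members left out, were Rapgef2 (0.896), Mfap3l (0.889), Itpripl2 (0.882), Ttc7b (0.879) and Klf13 (0.879). The libraries share their groups, so these values describe the pattern and carry no p. With group means removed, r was 0.847, 0.935, 0.881, 0.736 and 0.714 in this order, and 0.831, 0.744, 0.639, 0.73 and 0.189 when N49 was also left out. Among the members, r with Bcl2 was 0.461 for Pmaip1, 0.446 for Bcl2l1, 0.19 for Mcl1 and 0.042 for Bcl2l2, and it was below 0 for Bax (-0.238), Bak1 (-0.288) and Bbc3 (-0.099). Removing group means changed this order. Among the guardians r was then -0.098 for Bcl2l1, -0.337 for Mcl1 and 0.603 for Bcl2l2, and among the others it was -0.035 for Pmaip1, -0.707 for Bid and -0.487 for Bak1. Without N49 as well, Bcl2l1 was at 0.231, Mcl1 at -0.455, Bcl2l2 at 0.527, Pmaip1 at 0.266, Bid at -0.558 and Bak1 at -0.176, so that the signs for Bcl2l1 and Pmaip1 depend on how the libraries are treated.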

How the data were processed

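Per the labels' protocols, RNA came from homogenised frozen tumours (RNeasy Mini kit) and libraries from the TruSeq Stranded mRNA kit. DESeq2, RSEM, featureCounts, STAR 2.7.5a, cutadapt and the build mm10 are named in the submitters' processing notes, without roles. The deposited table holds raw counts, in whole numbers, for 48440 Ensembl IDs in 22 libraries. The sources used here do not say how the counting treated strand and reads that fit several genes. Positions and symbols came from GENCODE M21 (GRCm38, the assembly of mm10; 48058 IDs matched).

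edgeR 4.0.16 was run in R 4.3.3. Its filterByExpr, given the 6 groups, a minimum count of 10 and a minimum total of 15, kept 18929 genes with 99.91% of counts. Libraries were scaled by TMM, and glmQLFit and glmQLFTest were run on a model of group means, with no covariate. P-values were adjusted by Benjamini-Hochberg over all tested genes and called below 0.05. SE is the log2 fold change divided by the root of F. The procedure was tested on simulated counts with 200 changed genes. Replicates were compared by chi-square, and no pair of libraries of a group was near sampling noise, so none was treated as a repeat sequencing. That comparison cannot tell whether libraries came from the same animal. Each library was counted once. The closest pair, combined Myf5Cre N3 and N4 (chi-square 39.5 per gene), was not among the pairs that were summed. Alternatives were RLE scaling, no filter, DESeq2 1.42.0, genotype alone, single Cre labels or SS18-SSX groups, 16 libraries of 1 number series, summed pairs and leaving out each library. Fits that also left out N49 within 1 Cre label or against 1 SS18-SSX group were added after seeing the data.

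The 10 members and the gene lists were chosen with earlier results of these data known. Named genes are the members, up to 2 called genes of largest change in each direction per list and comparison, the 5 genes most like Bcl2, and Smarcb1 and Ptprc as checks. Tle1, Sox2, Fzd10, Twist1 and Trp53 fall outside this rule and were named after their values were seen. Promoter stretches were searched in Python 3.11.15, and figures were drawn with matplotlib 3.10.9.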

Additional observations from a re-analysis of the deposited data

Results flagged for a closer look

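Bcl2l11 in combined TATCre library N49, at 133 CPM, lay far above the other 3 libraries of its group (18.9 to 22.7 CPM), by a gap that takes up most of the range of the group on the log2 scale. It was the 1 case among 30 tests of the highest or lowest library, covering the 10 members in the 3 groups of 4 or 5 libraries, and chance gives such a case in about 1 of 20 groups. Bcl2 in the same library (166 against 4.21 to 10.5 CPM) did not pass that criterion, since the other 3 libraries also differed among themselves. Of the 8 combined tumours, this library had the highest Smarcb1 (3.66 CPM, against 0.909 to 3.33 in the others), the lowest sum of synovial sarcoma markers (502 CPM, against 514 to 1400) and the highest sum of muscle markers (1820 CPM). Its Fzd10, one of the synovial sarcoma markers, was not low (113 CPM, against a median of 15.5 in the others).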

How the results depend on the processing

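Over all alternatives and comparisons, 1937 values of members kept direction and side of the threshold, 74 lost a call, 23 gained one and 86 changed sign. Mcl1 in all 3 genotype comparisons, Bcl2, Bcl2l1 and Pmaip1 in combined against Snf5-null, Bcl2l1 and Bcl2l11 in combined against SS18-SSX, and Bax against SS18-SSX in both were called in 22 of 22 fits that left out 1 library. The cause of the changes below was not tested.

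Counts of members moved as follows. In combined against Snf5-null, 2 were lower among TATCre libraries only. In combined against SS18-SSX, 1 was higher against either SS18-SSX group alone, also 1 against SS18-SSX with no Cre stated once N49 was left out, and 4 were lower among Myf5Cre libraries without N49. In Snf5-null against SS18-SSX, 1 was higher against SS18-SSX with no Cre stated, with or without N49, and 0 were lower among Myf5Cre libraries, against SS18-SSX Myf5Cre, or with N31 and N33 summed. Leaving out 1 library gave 0 to 1 lower there. For Cre within Snf5-null it gave 0 to 1 higher. For Cre within combined it gave 0 to 1 lower, with 0 in the 16 libraries of 1 number series and in both fits with summed pairs, and 2 by DESeq2. For the interaction it gave 0 to 1 lower, with 2 by DESeq2. Bbc3 in combined against SS18-SSX was lost without SS18-SSX N381, N460 or N2 or combined Myf5Cre N1 (adjusted p 0.0598 to 0.0874), and in Snf5-null against SS18-SSX without any of 13 libraries (adjusted p 0.0509 to 0.0858).

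Of the log2 fold changes whose sign turned, only that of Pmaip1 had been called. In combined against Snf5-null among TATCre libraries these were Bcl2l2 (-0.06, and -0.22 without N49), Bcl2l11 (0.24) and, without N49, Pmaip1 (0.14). Among Myf5Cre libraries they were Bbc3 (-0.26, and -0.21 without N49), Bak1 (-0.09 and -0.03) and Bax (-0.2 and -0.15). Bbc3 was -0.02 by RLE, by DESeq2 and with N31 and N33 summed, -0.05 without the filter and -0.01 in the 16 libraries. Bak1 was -0.1 by RLE and DESeq2, -0.12 without the filter, -0.09 in the 16 libraries and -0.14 with N31 and N33 summed. In combined against SS18-SSX, Bcl2l2 was 0.13 among Myf5Cre libraries (0.23 without N49), 0.01 against SS18-SSX Myf5Cre and 0.0 with N43L and N43R summed. In Snf5-null against SS18-SSX, Bcl2l1 was 0.03 against SS18-SSX Myf5Cre (0.05 without N49) and 0.03 with N31 and N33 summed.

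Leaving out 1 library in turn spanned 0 for Bbc3 (-0.15 to 0.26), Bid (-0.04 to 0.55), Bak1 (-0.16 to 0.16) and Bax (-0.11 to 0.34) in combined against Snf5-null, Bcl2l2 (-0.12 to 0.04) in combined against SS18-SSX and Bcl2l1 (-0.21 to 0.1) in Snf5-null against SS18-SSX. It did so for Pmaip1 (-0.13 to 0.16) and Bid (-0.03 to 0.45) between Cre labels in Snf5-null, for Bcl2 (-2.68 to 0.44), Bid (-0.04 to 1.13) and Bax (-0.31 to 0.14) between Cre labels in combined, and for Bid (-0.15 to 1.05) in the interaction. Between the SS18-SSX groups it did so for Bcl2 (-0.53 to 0.2), Bcl2l11 (-0.42 to 0.04), Bbc3 (-0.48 to 0.64), Bid (-0.36 to 0.65) and Bak1 (-0.11 to 0.48).

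The scaling moved the median of all genes in combined against Snf5-null from 0.235 (TMM) to 0.12 (RLE), and the share of higher among called genes from 58.7% to 51.2%. It was 46.1% with no filter and 44.9% with N31 and N33 summed, where 3423 genes were called higher in place of 5509. Within 1 Cre label, 2978 (Myf5Cre) or 3423 (TATCre) were called higher there, and in Snf5-null against SS18-SSX 2734 in place of 4217 among Myf5Cre libraries. Over all genes the calls higher and lower between Cre labels in Snf5-null were 337 and 603, but 74 and 50 with N31 and N33 summed, 185 and 374 with N43L and N43R summed and 690 and 1566 by DESeq2. Those in combined were 108 and 236, but 83 and 118, 84 and 122, and 382 and 1081 in the same order. Those of the interaction were 249 and 209, but 34 and 45, 158 and 101, and 838 and 656. Those between SS18-SSX groups were 236 and 164, but 123 and 115, 122 and 158, 772 and 599, and 63 and 52 with no filter. No paired analysis was possible because no pair of groups shares more than 1 tag.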
